A study of Mus musculus with 2 samples.

Results

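The Dlk1-Dio3 region of mouse chromosome 12 carries one of the largest groups of miRNA genes in the genome, and its miRNAs were followed here in mouse embryonic stem cells (mESCs) and in prospermatogonia. Members were taken by position alone: of 1638 features in the smRNA-seq (small RNA sequencing) table, 56 lie between 109544541 and 109747960 on chromosome 12 (GRCm38), a span of 203.42 kb. A feature is 1 miRNA hairpin locus, 68 to 124 bases long, so both arms of a hairpin are counted together. Of the 56 members, 49 have a miRNA name and 7 have the name of a genomic clone, and 52 lie on the plus strand. Each of the 56 overlapped a miRNA gene of the GENCODE annotation, 43 of them with exactly the same position.

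The study made its smRNA-seq libraries to look for piRNAs, and the table used here holds the miRNA features of 1 library of each cell type. The mESC library came from E14, an established line, labelled wild type. The study's general culture methods describe naive E14 cells grown without feeder cells in LIF with inhibitors of MEK and GSK3, but the labels do not give the culture state of this library. The prospermatogonia library came from germ cells of male C57Bl/6J embryos at stage E15.5, in embryonic days. The labels name these cells primordial germ cells and wild type, and by the study's methods the mothers carried an Oct-4/GFP transgene. The sources used here do not say how many embryos were pooled. No group had a replicate, so no difference below has a replicate check and no p-value is given. Intervals are 95% Wilson intervals, which cover only the counting error of independent reads and no difference between replicate libraries. PCR reads without molecular identifiers are not independent molecules, so these intervals can be too narrow.

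As background, this region is imprinted: the coding genes Dlk1, Rtl1 and Dio3 are transcribed from the paternal allele, and the non-coding genes Meg3, Rian and Mirg, with the transcript antisense to Rtl1, from the maternal allele. The miRNAs are cut from the maternal transcripts. A differentially methylated region between Dlk1 and Meg3, methylated on the paternal allele, controls the choice. This mark is erased in primordial germ cells of both sexes and set anew in the male germ line before birth, and the activity of the maternal transcripts differs among mouse pluripotent lines. The libraries do not tell the alleles apart, and in bulk samples fewer cells of a type and less RNA per cell cannot be told apart.

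The members that the results turn on lie at the antisense side of Rtl1 and in the cluster from Mir379 to Mir410. RefSeq (GRCm38.p6) gave 108 mature sequences at 55 of the 56 members. The sequences shown are those of the members that took most reads in both libraries. Both arms are given because the table does not tell them apart. Capitals mark the seed, bases 2 to 8 from the 5′ end, which leads the pairing with targets.
miR-127-5p: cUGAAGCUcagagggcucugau
miR-127-3p: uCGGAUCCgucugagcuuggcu
miR-434-5p: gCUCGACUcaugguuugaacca
miR-434-3p: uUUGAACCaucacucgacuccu
miR-411-5p: uAGUAGACcguauagcguacg
miR-411-3p: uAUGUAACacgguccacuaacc
miR-541-5p: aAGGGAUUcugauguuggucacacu
miR-541-3p: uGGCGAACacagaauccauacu
miR-410-5p: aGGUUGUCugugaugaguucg
miR-410-3p: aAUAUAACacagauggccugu

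The 108 mature sequences held 100 different seeds, and 8 seeds belonged to more than 1 of them. The pairs shown next are shared or nearly shared seeds within the region. The seed of miR-379-3p is that of miR-411-3p, and the 2 loci lie next to each other at the start of the Mir379 cluster. The 3′ arms of Mir300 and Mir381 differ at 3 of 22 positions, counted from 1 at the 5′ end of miR-300-3p: G4A, U21G and C22U. A single one of these, G4A, lies in the seed. Outside the region, 2 mature miRNAs (miR-344d-3p and miR-344e-3p) have the seed of miR-410-3p.
miR-379-3p: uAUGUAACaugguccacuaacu
miR-411-3p: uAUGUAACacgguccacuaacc
miR-300-3p: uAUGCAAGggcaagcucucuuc
miR-381-3p: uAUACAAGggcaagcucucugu

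The Mir127 hairpin, which took the most reads in both libraries, is shown whole with its 2 mature arms in capitals. It lies at chr12:109592846-109592915 (GRCm38), plus strand, opposite the coding exon of Rtl1.
Mir127 hairpin: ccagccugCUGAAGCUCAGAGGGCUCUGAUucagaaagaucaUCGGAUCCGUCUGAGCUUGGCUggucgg

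The values deposited by the authors are on a log2 scale, and whole reads could be recovered from them. They were read as log2 RPM (reads scaled to a library of 1000000 reads), in which 1 read was worth 2.22 RPM in mESCs and 0.348 RPM in prospermatogonia. On that reading the library totals were 449643 and 2869578 reads, while the reads on miRNA features numbered 110455 and 155237. Prospermatogonia were therefore sequenced 6.38-fold more deeply as libraries but only 1.41-fold more deeply in miRNA reads. For this reason members are compared mainly as shares of miRNA reads and of region reads, which do not depend on the library total.

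The cell types were checked with miRNA marker lists. The pluripotency list, made of the Mir290 and Mir302 clusters, had reads on 12 of 12 features in mESCs, which held 24.7% of miRNA reads, and on 9 of 12 in prospermatogonia, with 3.25%. An X-linked list of 12 germ cell miRNAs held 0.0118% of miRNA reads in mESCs and 10.5% in prospermatogonia, where 12 of 12 had reads. Fibroblast and mesenchyme markers had reads on 5 of 7 features and 3.31% of miRNA reads in mESCs, mostly Mir21 (2215 reads) and Mir143 (1393 reads). In prospermatogonia 3 of 7 had reads, with 0.482% of miRNA reads, again mostly Mir21 (486 reads) and Mir143 (260 reads). There Mir199a-1, Mir199a-2, Mir199b and Mir145 were at 0 reads. Gonadal soma markers held 0.262% of miRNA reads in mESCs (2 of 3 with reads) and 0.399% in prospermatogonia (3 of 3). Mir140, with 280 and 558 reads, held most of them, while Mir202 had 0 and 57 and Mir455 had 9 and 4. Blood and endothelium markers held 0.593% of miRNA reads in mESCs (2 of 6 with reads) and 0.107% in prospermatogonia (4 of 6). Nearly all of these reads lay on Mir142 (400 and 124 reads) and Mir126 (255 and 40 reads). Mir144 and Mir223 were at 0 in both libraries, and Mir486 and Mir451 had 0 reads in mESCs and 1 each in prospermatogonia. The part of such other cells in the region's levels was not tested.

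Both cell types expressed miRNAs of the region, and the region took a slightly larger part of miRNA reads in mESCs. The members held 2205 reads in mESCs, 2.0% of miRNA reads (interval 1.92 to 2.08), and 2244 reads in prospermatogonia, 1.45% (1.39 to 1.51). The share was 1.38-fold higher in mESCs (1.30 to 1.46), a difference beyond counting error. Without Mir127, 1014 and 1148 reads remained, and the share in prospermatogonia was 0.806 times that in mESCs (0.740 to 0.877). This shift was small beside that of the Mir290 cluster of pluripotent cells, which held 24.5% of miRNA reads in mESCs and 3.25% in prospermatogonia, 7.53-fold less (7.30 to 7.76). The 119 features within Sfmbt2, another imprinted host of many miRNAs, held 0.102% and 0.0541%, a share 1.89-fold higher in mESCs (1.43 to 2.51) whose interval overlaps that of the region.

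On the scale of the library totals the difference was larger, at 4904 RPM in mESCs against 782 RPM in prospermatogonia. This is 6.27-fold higher in mESCs (5.91 to 6.65), or -2.65 as log2 of prospermatogonia over mESC. The sum of all miRNA features moved by -2.18 on the same scale, so -0.47 of the region's log2 difference is left relative to all miRNAs.

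Reads fell on most of the members in both libraries. Of the 56, 35 (62.5%) had a read in mESCs and 37 (66.1%) in prospermatogonia, compared with 17.4% and 19.4% of all features in the table. Most clone-named features of the table had no read, and among features with a miRNA name the shares were closer, at 31 of 49 members (63.3%) against 43.1% of all 636 in mESCs and 34 of 49 (69.4%) against 46.4% in prospermatogonia. The libraries had 32 members in common, with 3 read in mESCs alone, 5 in prospermatogonia alone and 16 in neither. Across the whole table, 354 features had a read in at least 1 library, and 216 features other than members had one in both. Many of the members' counts were low, with 13 members in each library at 1 to 3 reads. This left 22 members in mESCs and 24 in prospermatogonia with more than 3, a count not made over all features. If prospermatogonia had been sampled to the miRNA reads of the mESC library, 34.6 members would be expected to have a read, and at the smaller library total of mESCs 23.6, beside the 35 seen in mESCs.

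**Figure D1:**
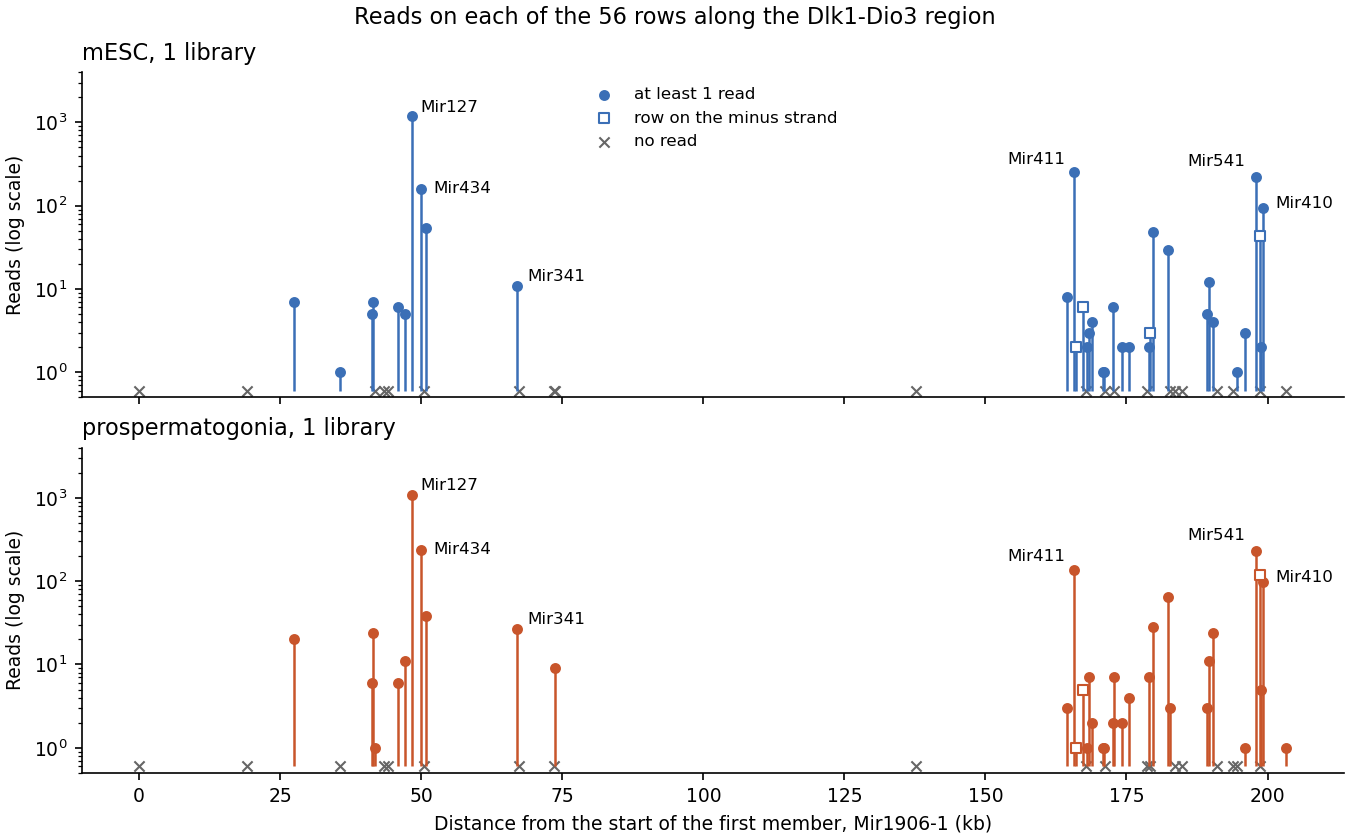
Reads on each of the 56 members (log axis) against the distance in kb from the start of the first member, Mir1906-1, in the mESC library (top) and the prospermatogonia library (bottom). Filled points are members on the plus strand with at least 1 read, open squares are members on the minus strand, and crosses are members without a read. In both libraries the reads lie in a block about Mir127 and in a block from Mir379 to Mir410, with Mir127 highest at 1191 and 1096 reads and long stretches with few or no reads between them.

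The reads were concentrated on a few members, and these were nearly the same in both cell types. Mir127 alone took 54.0% of the region's mESC reads (51.9 to 56.1) and 48.8% of those of prospermatogonia (46.8 to 50.9). The 5 highest members held 87.1% and 81.1%, and the 10 highest 95.5% and 92.5%. Of the 10 highest, 9 were the same in both libraries, with Mir134 among those of mESCs and Mir341 among those of prospermatogonia. Over the 32 members read in both, Spearman's rho of the reads was 0.855, and over the other 216 features of the table read in both it was 0.733. This is a description across loci, which share their library and, here, their host transcripts.

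**Figure D2:**
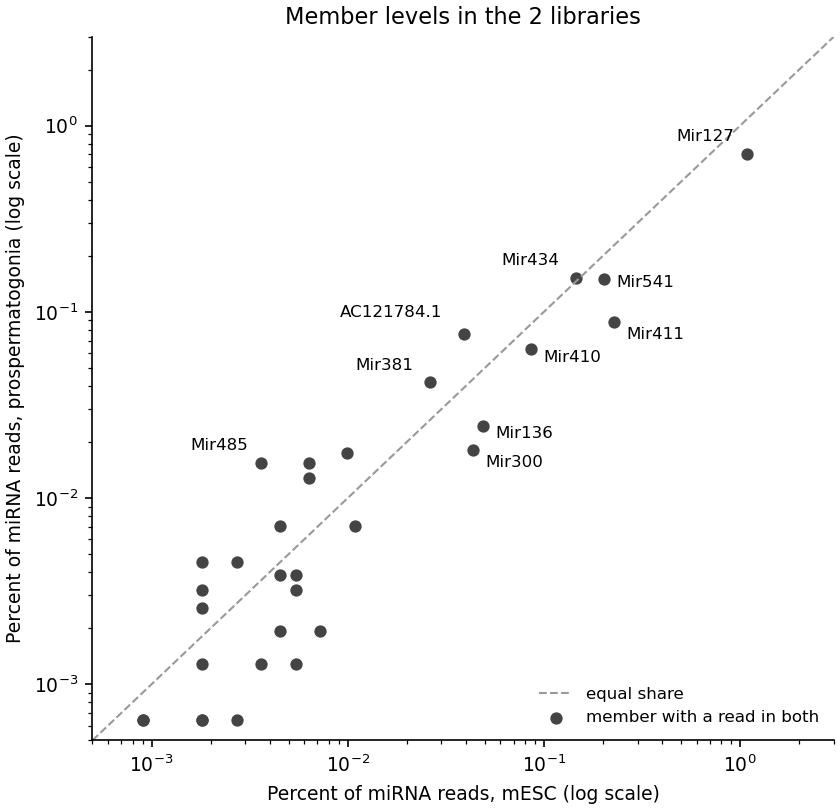
Percent of miRNA reads on each member in the mESC library (horizontal, log axis) and in the prospermatogonia library (vertical, log axis), for the 32 members with a read in both. The dashed line marks equal shares. Mir127 is highest in both, Mir411, Mir136 and Mir300 lie below the line, and Mir381, Mir485 and the clone-named AC121784.1 lie above it.

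By position the members fall into 5 groups where gaps over 10 kb divide them. At the proximal end, Mir1906-1 and Mir770, both in exons of the non-coding RNA gene Meg3, had no read in either library. A count of 0 allows up to 3 reads, or 6.67 RPM at the mESC depth and 1.05 RPM at that of prospermatogonia. The 14 members from Mir770 to Mir136, over 31.7 kb, held 1436 reads in mESCs (65.1% of region reads) and 1438 in prospermatogonia (64.1%). The ratio of prospermatogonia to mESC was 0.984 for the share of region reads (0.915 to 1.06) and 0.713 for the share of miRNA reads (0.662 to 0.767). Ratios below are of the share of region reads unless stated, and those of the share of miRNA reads are 0.724 times as large, the ratio of the whole region.

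Within this group the members antisense to Rtl1 made up nearly everything. Rtl1 is a gene derived from a retrotransposon that the placenta needs, and the miRNAs on its opposite strand pair perfectly with its mRNA and lead to its cleavage. The 6 members (Mir431, Mir433, Mir127, Mir434, Mir432 and Mir136) lie opposite the coding exon of Rtl1 and held 1416 reads in mESCs, 64.2% of region reads (62.2 to 66.2), and 1387 in prospermatogonia, 61.8% (59.8 to 63.8). Their ratio was 0.962 (0.894 to 1.04) within the region, not beyond counting error, but 0.697 (0.647 to 0.751) among all miRNA reads, which is beyond it.

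The members opposite Rtl1 were very unequal. Mir127 had 1191 reads (2649 RPM) in mESCs and 1096 (382 RPM) in prospermatogonia, rank 17 and rank 23 among all features of the table. Mir434 had 160 and 236 reads, and its share of region reads was higher in prospermatogonia (10.5% against 7.26%, ratio 1.45, 1.19 to 1.77). Mir136 had 54 and 38 reads, with a ratio of 0.691 (0.458 to 1.04). As a share of region reads Mir127, with a ratio of 0.904 (0.833 to 0.982), thus moved opposite to Mir434 within the same antisense stretch. Among all miRNA reads the ratio was 0.655 (0.603 to 0.711) for Mir127. That of Mir434 was 1.05, with an interval that includes 1 (0.859 to 1.28). Mir431 had 6 reads in each library and Mir433 had 5 and 11, with intervals of the ratio that include 1, and Mir432 had none.

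The 8 members of this group that lie outside Rtl1 held few reads but a larger share in prospermatogonia. They had 20 reads in mESCs (0.907% of region reads) and 51 in prospermatogonia (2.27%), a ratio of 2.51 (1.5 to 4.18), and of 1.81 (1.09 to 3.03) among all miRNA reads. Mir540 had 7 and 24 reads and Mir673 had 7 and 20, with ratios of 3.37 (1.49 to 7.64) and 2.81 (1.22 to 6.48). Mir337 had 5 and 6 reads. Most of the difference lay on Mir540 and Mir673, and the other members had at most 1 read in either library.

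Members in introns of the non-coding gene Rian showed the same direction. The 4 members had 11 reads in mESCs (0.499%) and 36 in prospermatogonia (1.60%), a ratio of 3.22 (1.66 to 6.24), and of 2.33 (1.2 to 4.52) among all miRNA reads. Mir341 had 11 and 27 reads. Mir370 had no read in mESCs and 9 in prospermatogonia, and against the 3 reads that a count of 0 allows its share of region reads was at least 2.95-fold higher in prospermatogonia and its share of miRNA reads at least 2.13-fold higher. These bounds leave out the counting error of the 9 reads, and the Wilson intervals of the same ratios start lower, at 2.30 and 1.67. Mir1188 and AC152063.1 had none, and neither did Mir882, which stands alone further on.

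**Figure D3:**
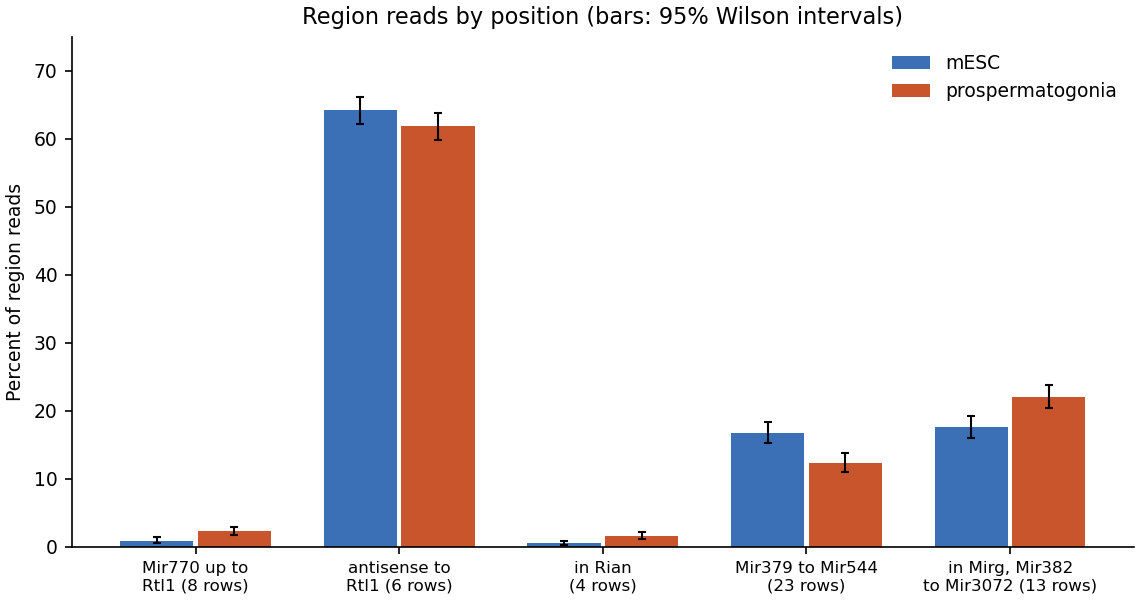
Percent of region reads on 5 stretches of the region in chromosome order, for the mESC library (blue) and the prospermatogonia library (orange), with the number of members of each stretch. Bars start at 0 and error bars are 95% Wilson intervals. The stretch antisense to Rtl1 is highest in both libraries at 64.2% and 61.8%, and the last 2 stretches, from Mir379 to the distal end, are nearly level in mESCs at 16.8% and 17.6% but apart in prospermatogonia at 12.3% and 22%. The changes of the last 2 stretches lay mainly on single members, Mir411 and the clone-named AC121784.1.

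The distal cluster, 36 members over 38.9 kb from Mir379 to Mir3072, held 758 reads in mESCs (34.4%) and 770 in prospermatogonia (34.3%). The whole cluster had a ratio of 0.998 (0.903 to 1.10) within the region and 0.723 (0.654 to 0.799) among all miRNA reads, and its parts differed from each other. This cluster is found only in placental mammals, and several of its miRNAs act in neurons. The 23 members up to Mir544, which lie before the annotated start of Mirg, held 16.8% of region reads in mESCs and 12.3% in prospermatogonia (ratio 0.733, 0.627 to 0.856), and their ratio among all miRNA reads was 0.531 (0.454 to 0.620). The 13 members from Mir382 onward, which lie within Mirg, held 17.6% and 22% (ratio 1.25, 1.10 to 1.43). Among all miRNA reads the direction of this stretch turned, with a ratio of 0.906 whose interval includes 1 (0.793 to 1.03).

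Mir411 led the proximal stretch of this cluster, and the lower share of the stretch in prospermatogonia lay mainly on this member. The stretch held 370 reads in mESCs and 276 in prospermatogonia. Mir411 had 251 reads in mESCs (11.4% of region reads) and 137 in prospermatogonia (6.11%), a ratio of 0.536 (0.436 to 0.660). Its neighbour Mir379, first in the cluster and bearing the same 3′ arm seed, had 8 and 3 reads, and its ratio of 0.368 (0.106 to 1.28) has an interval that includes 1. Only 2 members of the stretch, Mir300 and Mir411, had intervals wholly below 1, and 2 members, Mir381 and Mir543, had intervals wholly above 1. Mir543 had no read in mESCs and 7 in prospermatogonia, at least 2.29-fold higher as a share of region reads and at least 1.66-fold as a share of miRNA reads against a floor of 3 reads. The Wilson intervals, which include the counting error of the 7 reads, start at 1.79 and 1.30.

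Mir300 and Mir381, whose 3′ arms are nearly alike, changed order between the libraries. Mir300 had 48 reads in mESCs and 28 in prospermatogonia (ratio 0.573, 0.361 to 0.910), whereas Mir381 had 29 and 65 (ratio 2.20, 1.43 to 3.40). Of the reads on the pair, Mir381 took 37.7% in mESCs (27.7 to 48.8) and 69.9% in prospermatogonia (59.9 to 78.3). How reads with more than 1 match or with mismatches were counted is not given in the sources used here, so the division of reads between this pair is uncertain.

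The members of the Mir376 family and their neighbours were near the limit of detection. Mir376b had 2 and 7 reads, Mir758 had 3 and 7, Mir667 had 2 and 4, Mir666 had 6 and 2 and Mir329 had 4 and 2, each with an interval of the ratio that includes 1. Mir376a is covered only by a clone-named feature on the other strand, AC121784.2, with 3 and 0 reads. Mir487b had 0 and 3 reads. None of these counts resolved a difference in the share of region reads.

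Within Mirg, the reads lay mainly on 3 loci at its distal part. The 5 members from Mir541 to Mir410 lie within 1.387 kb and held 363 reads in mESCs (16.5% of region reads) and 454 in prospermatogonia (20.2%), a ratio of 1.23 (1.07 to 1.41) within the region but 0.890 (0.775 to 1.02) among all miRNA reads. Mir541, in an intron of Mirg, had 223 and 233 reads and Mir410, in an exon, had 95 and 98. Their shares of region reads hardly moved, with ratios of 1.03 (0.855 to 1.23) and 1.01 (0.765 to 1.34), so the larger share of this stretch within the region lay mainly on the clone-named AC121784.1 between them.

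The other members within Mirg had few reads. Mir134, known for its part in the growth of dendritic spines, had 12 and 11 reads, with a ratio of 0.901 (0.406 to 2.0). Mir485, from an exon of Mirg, had 4 reads in mESCs and 24 in prospermatogonia, the highest ratio among members with over 3 reads in both libraries, at 5.90 (2.14 to 16.3). Mir382 had 5 and 3 reads, Mir369 had 2 and 5 and Mir377 had 3 and 1. Mir453, Mir154 and Mir412 had none.

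AC121784.1 is one of 4 clone-named members on the minus strand, each opposite a known plus-strand miRNA. It had 43 reads in mESCs (1.95% of region reads) and 118 in prospermatogonia (5.26%), a ratio of 2.70 (1.91 to 3.82). It lies over Mir409, which has no feature of its own in the table, and the hairpin of Mir409 at chr12:109743158-109743236 (GRCm38), plus strand, is shown because its reads would fall on AC121784.1 if strand was not used, with its mature arms in capitals.
Mir409 hairpin: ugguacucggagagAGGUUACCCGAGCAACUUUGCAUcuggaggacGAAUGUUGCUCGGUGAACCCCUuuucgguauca

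Whether strand was used in counting is not given in the sources used here, so reads of the minus-strand feature and of Mir409 cannot be told apart. The same holds for AC121784.3 over Mir380 (6 and 5 reads), AC121784.2 over Mir376a and AC121784.4 over plus-strand Mir299a and minus-strand Mir299b (2 and 1 reads). Together the 4 held 54 reads in mESCs (2.45%) and 124 in prospermatogonia (5.53%). Among all features, 6 lie only opposite a RefSeq hairpin, and 5 of them had reads in at least 1 library, against 21 of the 996 other clone-named features. Of these 6, 3 are members of this region, and all 3 had reads. Whether the count reflects the use of strand was not tested. The 3 clone-named members on the plus strand had no read. Among miRNA-named members, Mir136 lies over minus-strand Mir3071 and Mir337 over minus-strand Mir3544, so their reads have the same limit of strand.

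**Figure D4:**
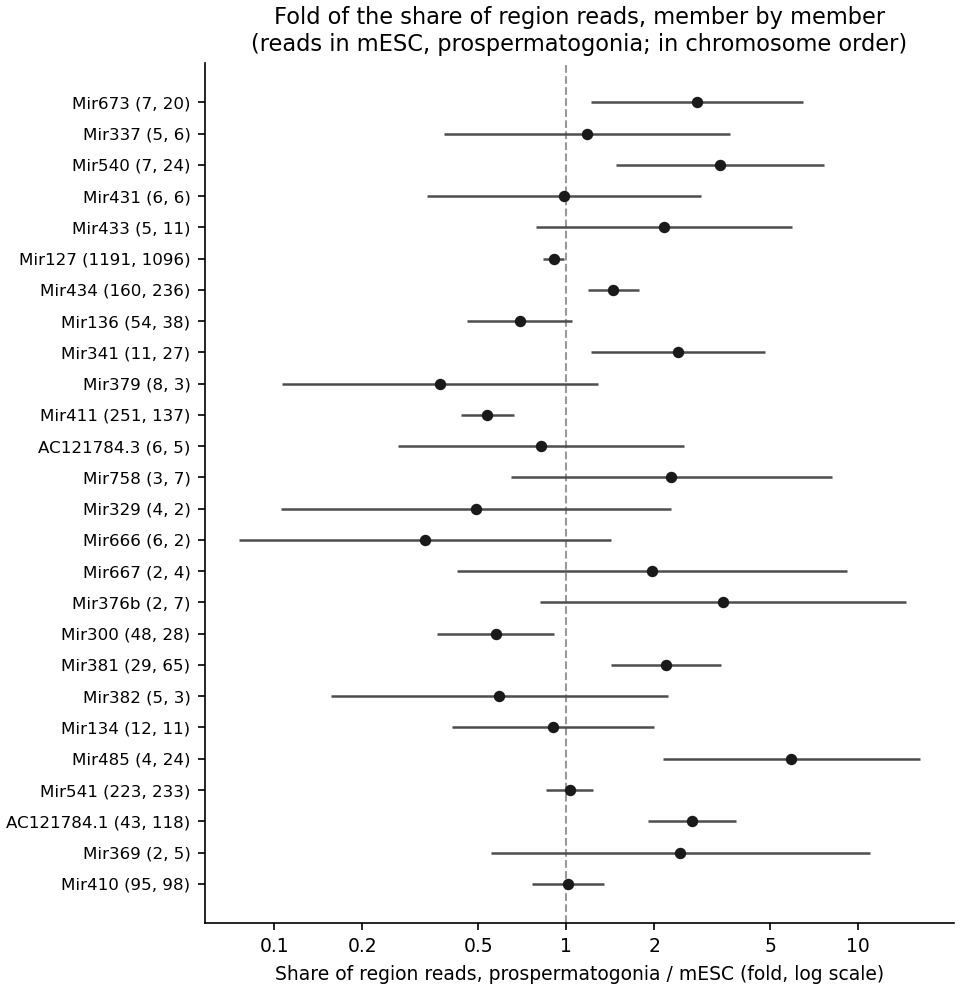
Ratio of each member's share of region reads in prospermatogonia to that in mESCs (log axis) with 95% Wilson intervals, in chromosome order, for members with a read in both libraries and over 3 reads in at least 1, whose reads are given in brackets. The dashed line marks equal shares. Mir127, Mir411 and Mir300 lie wholly below 1, and Mir673, Mir540, Mir434, Mir341, Mir381, Mir485 and AC121784.1 wholly above it.

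Over all 40 members with a read, 28 had a ratio of region shares whose interval includes 1, 3 lay below it and 9 above it. Those below were Mir127, Mir411 and Mir300. Those above were Mir673, Mir540, Mir434, Mir341, Mir370, Mir543, Mir381, Mir485 and AC121784.1, of which 7 had over 3 reads in both libraries. These shares add up to the whole region, so a smaller share on Mir127 and Mir411 raises those of other members. As shares of all miRNA reads, 8 members lay below 1 (Mir127, Mir136, Mir379, Mir411, AC121784.2, Mir300, Mir541 and Mir410), 6 above (Mir540, Mir370, Mir543, Mir381, Mir485 and AC121784.1) and 26 included it. Mir434, Mir341 and Mir673 were thus higher within the region but not resolved among all miRNAs. Of the 8 below 1, Mir379 rests on 8 reads in mESCs and 3 in prospermatogonia, and AC121784.2 on 3 and 0. Since a count of 0 allows up to 3 reads, the place of AC121784.2 below 1 is uncertain. Counts of intervals below and above 1 were not made over all features, so these numbers are not compared with the rest of the table.

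Against the rest of the table, the median difference of the members was close to that of all features at the main filter and pseudocount. With a filter of 10 RPM in at least 1 library, 20 of 56 members (36 did not pass) entered a count of differences of at least 2-fold, on the scale of log2(RPM + 1), which understates the change of low features. Since 10 RPM is 5 reads in mESCs and 29 in prospermatogonia, a low member could enter through mESCs alone, which favours lower values in prospermatogonia. All 20 members reached 10 RPM in mESCs, and only 8 of them did so in both libraries, beside 111 of all 203 features. As deposited, the median log2 ratio of these 8 was -2.60, and that of the 111 was -2.33. On the values as deposited, 19 of the 20 were lower in prospermatogonia, where 80.8% of all 203 features were, and 0 were higher, against 9.85%. Their log2 ratios ran from -3.52 for Mir411 to -0.82 for Mir540, with a median of -2.45, and the median of all features was -2.52.

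With the libraries scaled to their miRNA reads, which adds 2.18 to each log2 RPM of prospermatogonia, 5 members were lower (39.9% of all features were) and 1 was higher (20.2%). Those lower were Mir666 (-1.78), Mir379 (-1.71), Mir411 (-1.36), Mir300 (-1.25) and Mir382 (-1.08), and the one higher was Mir540 (1.23). Of these only Mir411 had 10 RPM in both libraries. Mir666, Mir379, Mir300, Mir382 and Mir540 passed the filter through mESCs alone, which favours lower values in prospermatogonia, and Mir666, Mir379 and Mir382 rest on 2 or 3 reads there. The other 14 members lay within 2-fold, and the median of -0.45 was close to the -0.46 of all features.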

How the data were processed

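The authors prepared smRNA libraries with a TruSeq small RNA kit, cut the size class of small RNA inserts from a gel, and sequenced them from 1 end. Reads were trimmed with Trim Galore 0.4.1 and aligned with Bowtie, and piPipes was used for small RNA analysis. The study's methods name mm9, the submitters' processing notes GRCm38, and the positions of the table match GRCm38: 1300 of 1638 features have exactly the position of a miRNA gene in GENCODE vM21. The deposited values are log2 values, 1 column for each library. Their scaling, the use of strand and the treatment of reads with several matches are not given in the sources used here, and they were read as log2 RPM.

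In linear form each value above the lowest was a whole multiple of 1 constant, within 0.0136 reads in mESCs and 0.0165 reads in prospermatogonia, and whole reads were recovered so. Features at the lowest value, which equals 0.9 reads (1.00 and -1.67 on the log2 scale), were set to 0 reads. Library totals rest on the reading as RPM. Shares of miRNA reads and of region reads do not.

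Members and lists were chosen with earlier results of these data known. Named members were the 10 highest in each library, the well-known miRNAs of the region whatever their value, and clone-named features over 3 reads or over a named miRNA. The interval of a ratio of shares was made from the Wilson interval of the split of reads between the libraries. Counts of members at least 2-fold different used a pseudocount of 1 RPM and features of 10 RPM in at least 1 library. With 1 library in each group no model was fitted. Alternatives were other pseudocounts, filters, folds, scalings and sets of members, and 3 choices made after seeing the data. The recovery of reads and the calls were tested on simulated data. Sequences are from RefSeq (GRCm38.p6). The smRNA library of mPGCLCs was not analysed here. Computations ran in Python 3.11.15 with numpy 2.4.6 and pandas 2.3.3, intervals were computed with scipy 1.17.1, and plots were drawn with matplotlib 3.10.9.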

Additional observations from a re-analysis of the deposited data

How the results depend on the processing

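No paired analysis was possible because there was 1 library for each cell type. For the same reason no replicate could be left out. Without Mir127 the region held 0.918% of miRNA reads in mESCs and 0.740% in prospermatogonia, and its summed log2 ratio was -2.49. A set of 3 choices was added after the data were seen. As shares of the implied library totals the region held 0.490% and 0.0782%, without the Mir290 cluster and the X-linked list in the denominator 2.64% and 1.68%, and without minus-strand members 1.37% in prospermatogonia. The region's share was higher in mESCs in each of these. With miRNA-named features only, Mir127 held 51.7% of region reads in prospermatogonia. Requiring over 3 reads left 22 and 24 members.

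The size of the differences depended on scaling. The summed log2 ratio was -0.47 with the libraries scaled to miRNA reads and -0.28 scaled to the median ratio, and the members' median was -0.45 and -0.27, the latter beside -0.28 for all features. Members at least 2-fold higher numbered 1 and 3, and those lower 5 and 4, so that 16.7% and 42.9% of calls were higher, against 0% as deposited. Of all 203 features, 41 and 45 were higher and 81 and 74 lower. Without a filter on low values 3 members were higher and 31 lower, of 40, beside 40 higher and 230 lower of all 354 features. With 10 RPM in both libraries 8 members were lower, of 8, beside 91 of all 111 features, and the medians were -2.60 and -2.33. The members' median was -1.69 without a filter, -1.57 with a pseudocount of 5 and -2.62 with 0.1. The medians of all features were -1.70, -1.98 and -2.64. At 4-fold 13 members were lower, of 20, beside 131 of all 203 features. The summed log2 ratio and the members' median stayed negative in every setting tried for them. Single members did change direction with scaling. Mir673, Mir540, Mir433, Mir434, Mir341, Mir381 and AC121784.1 had negative log2 ratios as deposited and positive ones scaled to miRNA reads. For Mir540 these were -0.82 and 1.23. The other members past the filter stayed negative. No members overlapped each other, so counting overlaps once changed nothing. Depth limits the single members, most of which had under 10 reads in mESCs.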
